A study of Mus musculus with 11 samples.

Results

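The genes of antigen presentation by the major histocompatibility complex (MHC) were followed in the cerebral cortex of 5xFAD mice with and without Abi3, the gene of a subunit of the actin-regulating WAVE2 complex. The set comprised 10 of the 53700 gene identifiers in the count data, matched by symbol and chosen with earlier results of these data known. Class I was represented by 6 genes, namely H2-K1, H2-D1, B2m, H2-T23, Tap1 and Tapbp. Class II was represented by 4 genes, namely Cd74, H2-Aa, H2-Ab1 and H2-Eb1. All 10 passed the filter on low counts and were tested among 17626 genes.

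RNA from the cortex of 11 female mice aged 8 months was counted by QuantSeq, which reads the 3′ end of each polyadenylated transcript. All mice carried the 5xFAD transgenes, which hold familial Alzheimer's disease mutations and are driven by the neuronal Thy1 promoter. Of these, 6 were Abi3 wildtype and 5 were Abi3 knockout, in which the locus was deleted in every cell, so the comparison has no mice without amyloid. The labels give the strain as C57BL/6, whereas the study's methods describe 5XFAD mice on a B6SJL background crossed with C57BL/6N knockout mice, all heterozygous for the SJL allele of Trem2. SJL and C57BL/6 mice are known to carry different H2 haplotypes. Which haplotypes the animals carried was not tested, and reads of another haplotype may be lost or assigned to another H2 gene, which bears on every H2 count given per animal.

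MHC class I molecules display peptides made inside the cell. A polymorphic heavy chain such as H2-K1 or H2-D1 pairs with β2-microglobulin, the product of B2m, after peptides from the proteasome are pumped into the endoplasmic reticulum by the Tap transporter and loaded with the help of tapasin, the product of Tapbp. MHC class II molecules, built from an α and a β chain, are held by the invariant chain Cd74 until cathepsin S cuts it away in endosomes, and they display peptides taken up from outside. In the brain, class I is found at low levels on many cells and is high in microglia and endothelium, and class II is known from microglia and macrophages in inflamed or amyloid-bearing tissue.

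The promoters of these genes share short elements that transcription factors of the MHC bind, and 5 of them are shown, those of the class I genes B2m, H2-K1 and H2-D1 and of an α and a β chain of class II, H2-Aa and H2-Eb1. The 250 bases before the RefSeq start of each gene are given from 5′ to 3′, from RefSeq sequence of GRCm38.p6, with the place of each found by a single exact match in GRCm39. Capitals mark 4 motifs, searched on both strands, and capitals run together where motifs overlap: ATTGG or CCAAT (the core of the Y box, which NF-Y binds), TGACG or CGTCA (a cyclic AMP response core site, as in the X2 box), GGGGANTCCCC (an NF-κB palindrome) and TTTCNNTT or AANNGAAA (a part of interferon-stimulated response elements).
B2m, GRCm39 chr2:121977918-121978167, plus strand: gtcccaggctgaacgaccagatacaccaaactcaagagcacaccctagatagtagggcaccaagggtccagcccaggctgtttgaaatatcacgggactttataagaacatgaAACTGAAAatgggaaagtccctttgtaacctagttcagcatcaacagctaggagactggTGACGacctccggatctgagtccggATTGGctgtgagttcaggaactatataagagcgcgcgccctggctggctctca
H2-K1, GRCm39 chr17:34219322-34219571, minus strand: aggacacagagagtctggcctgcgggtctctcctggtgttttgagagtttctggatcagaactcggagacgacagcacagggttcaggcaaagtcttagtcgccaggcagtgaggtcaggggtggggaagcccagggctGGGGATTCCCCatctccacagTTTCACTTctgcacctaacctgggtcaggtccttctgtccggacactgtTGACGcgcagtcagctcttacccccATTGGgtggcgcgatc
H2-D1, GRCm39 chr17:35481820-35482069, plus strand: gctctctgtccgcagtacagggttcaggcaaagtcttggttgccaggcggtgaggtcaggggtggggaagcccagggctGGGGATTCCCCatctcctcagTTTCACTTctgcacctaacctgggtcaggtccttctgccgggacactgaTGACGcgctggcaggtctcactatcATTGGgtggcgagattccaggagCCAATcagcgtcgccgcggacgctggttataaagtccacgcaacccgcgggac
H2-Aa, GRCm39 chr17:34506798-34507047, minus strand: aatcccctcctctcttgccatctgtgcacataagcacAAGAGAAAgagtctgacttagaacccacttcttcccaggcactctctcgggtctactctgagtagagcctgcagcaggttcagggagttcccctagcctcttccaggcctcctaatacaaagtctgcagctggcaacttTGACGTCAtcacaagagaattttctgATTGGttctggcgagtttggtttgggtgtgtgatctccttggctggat
H2-Eb1, GRCm39 chr17:34524591-34524840, plus strand: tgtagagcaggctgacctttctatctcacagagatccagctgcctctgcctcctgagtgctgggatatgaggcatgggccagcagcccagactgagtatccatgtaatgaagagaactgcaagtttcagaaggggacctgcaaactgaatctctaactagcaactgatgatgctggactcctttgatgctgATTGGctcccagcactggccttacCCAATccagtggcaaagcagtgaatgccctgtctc

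The Y box core was present in all 8 of the promoters searched, against 34.5% of 27025 promoters of this length. Cd74 and H2-Ab1 were not among the 8. The TGACG core site was present in 5 of 8, against 17.9% of all promoters, and the interferon element in 5 of 8, against 21.6%. The NF-κB palindrome was found in H2-K1 and H2-D1 and in 11 promoters in all, or 0.0407%. In B2m, H2-K1 and H2-D1 the core site TGACG stood 20 bases before ATTGG, and in H2-Aa it stood 21 bases before it. A pair spaced by 20 or 21 bases was found in 41 of all promoters, or 0.152%. This spacing was chosen after the sequences were seen. The windows of H2-K1 and H2-D1 were 87.4% identical over 190 aligned bases. In the GENCODE annotation, gene models of H2-D1 and H2-Eb1 begin before these windows and that of B2m begins inside its window. These matches describe letters and were not tests of binding.

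Each animal had 3202310 to 5501958 reads in genes, so that 3 reads, the limit that a count of 0 allows, correspond to 0.545 to 0.937 CPM (counts scaled to the reads in genes). Such limits cover counting error only. Abi3 itself had 10 to 38 reads in each wildtype animal, and 0 to 2 reads in the knockout animals, 4 of which were at 0. Neuronal markers led by Syt1 (mean normalized count 10445) fitted the labelled tissue. Reads outside genes per 100 in genes were 65.9 ± 3.67 (SD, n = 6) in wildtype and 54.0 ± 4.99 (SD, n = 5) in knockout libraries (exact permutation test, two-sided, p = 0.00649), so this measure moved with genotype. In 3 animals, wildtype 4 and knockout 1 and 5, the choroid plexus gene Ttr exceeded 1000 normalized counts.

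Among the antigen presentation genes B2m alone passed the test between genotypes. B2m was 1.35-fold higher in knockout cortex, the mean of H2-K1 was 1.43-fold and that of H2-D1 1.18-fold the wildtype mean without passing the test, and all 4 class II genes had estimates below 0 on very few reads. Among the members 1 of 10 was past the threshold (DESeq2, Benjamini-Hochberg adjusted p at or below 0.05), where 0.539% of all genes tested were, 0.34% higher and 0.199% lower in knockout. For none of the 10 were the genotypes without overlap, against 1.04% of all genes. Estimates were above 0 for 4 of the 6 class I genes and 0 of the 4 class II genes, beside 49.5% of all genes, and 1 member, B2m, had an unadjusted p under 0.05, beside 8.58% of all genes. The median log2 fold change was 0.33 over the 6 class I genes and -0.47 over the 4 class II genes, beside -0.0033 over all genes tested. Adjusted p-values were given to 4 members, since the filter of DESeq2 left out genes with a mean normalized count below 70.4.

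**Figure D1:**
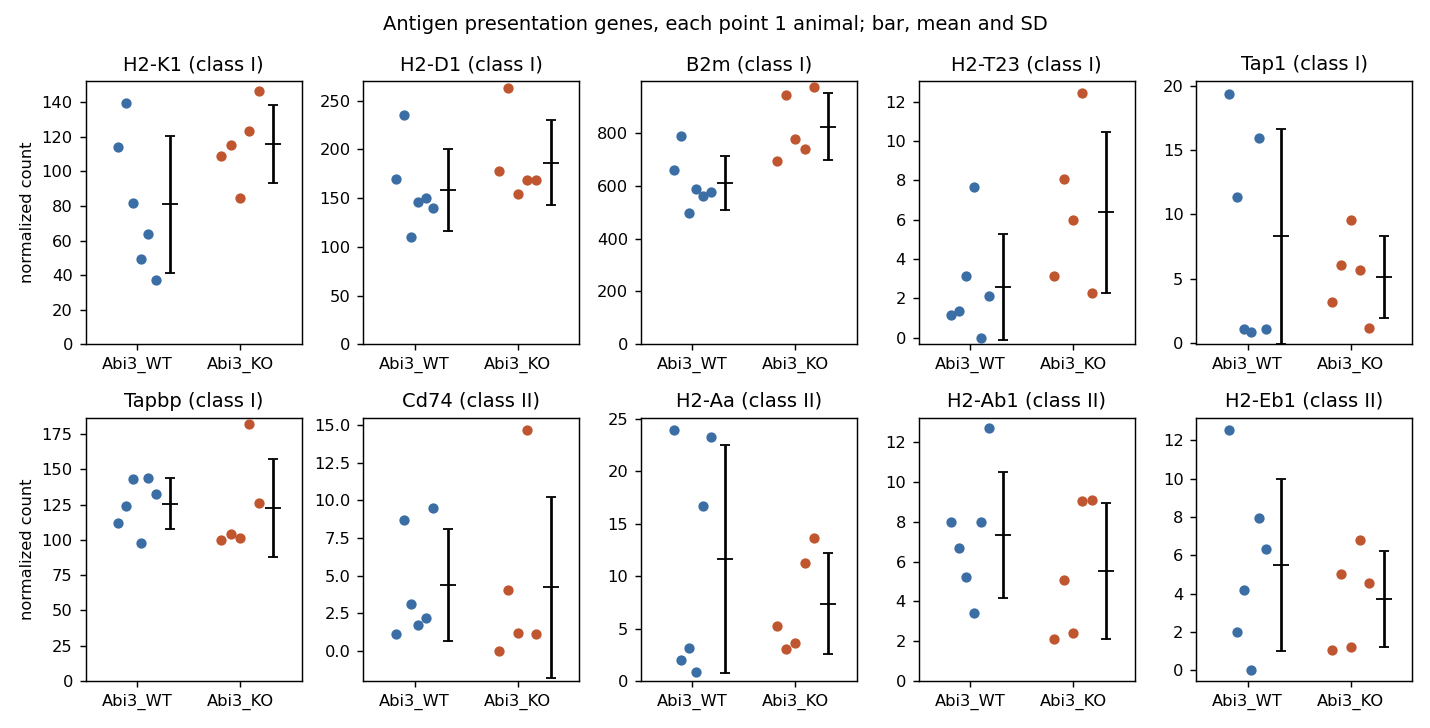
Normalized counts (vertical axis, a scale for each gene) of the 10 antigen presentation genes in Abi3_WT (blue, 6 animals) and Abi3_KO (orange, 5 animals) cortex, 1 point per animal, with the mean and SD as a black bar beside the points. B2m was at 496 to 790 in wildtype and 693 to 974 in knockout animals, and the class II genes stayed below 25 in every animal.

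B2m, the light chain shared by class I molecules, lies at chr2:121977957-121983594 (plus strand, GRCm39). Its normalized count in the 6 wildtype animals was 496 at the lowest, 582 at the median and 790 at the highest. In knockout animals 1 to 5 it was 693, 943, 777, 739 and 974. All 5 knockout animals were above the wildtype mean of 612 ± 102 (SD, n = 6), and only wildtype animal 2 reached into the knockout range. The knockout mean was 825 ± 126 (SD, n = 5). The log2 fold change was 0.43 (SE 0.115, DESeq2 adjusted p = 0.0234), and the exact permutation test over the 462 splits of the animals gave p = 0.0173 (two-sided, smallest possible p = 0.00216), unadjusted for the 10 members tested. The adjusted p was 0.0560 in DESeq2 without its filter on mean counts, 0.0699 in edgeR and 0.0723 in limma. The log2 fold change was 0.43 in each. By these tests 0.323% (filter off), 0.21% (edgeR) and 0.113% (limma) of all genes passed, of which 0.165%, 0.0964% and 0.0624% of all genes were higher in knockout and 0.159%, 0.113% and 0.0511% lower, and 0 members passed in any of them.

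The call on B2m also rested on single animals. It was lost without wildtype animal 3 (DESeq2 adjusted p = 0.0548), wildtype 5 (0.0939), wildtype 6 (0.0835), knockout 2 (0.127) or knockout 5 (0.0869), while the log2 fold change stayed between 0.37 and 0.52. With reads outside genes as a covariate the log2 fold change was 0.35 (DESeq2 adjusted p = 1.0). With the summed level of microglia markers as a covariate it was 0.31 (DESeq2 adjusted p = 0.182).

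Microglia markers gave 2416 ± 342 (SD, n = 6) summed normalized counts in wildtype and 2717 ± 302 (SD, n = 5) in knockout cortex (exact permutation test, p = 0.160). The list held 11 genes found by symbol, and 9 of the 11 had estimates above 0 with none past the threshold. Per 100 microglia marker counts, B2m was at 25.4 ± 3.07 (SD, n = 6) in wildtype and 30.7 ± 5.56 (SD, n = 5) in knockout cortex, 1.21-fold (exact permutation test, p = 0.0758). In bulk tissue, more cells of a type and more RNA per cell cannot be told apart.

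H2-K1, a classical class I heavy chain, lies at chr17:34214987-34219321 (minus strand). It was at 37.0, 72.7 and 140 normalized counts at the lowest, the median and the highest of the wildtype animals. In knockout animals 1 to 5 it was at 109, 115, 84.8, 123 and 147. Every knockout animal was above the wildtype mean of 81.0 ± 39.5 (SD, n = 6), but wildtype animals 1 and 2 lay within the knockout range. The log2 fold change was 0.51 (SE 0.266, 95% interval -0.0084 to 1.03, DESeq2 adjusted p = 0.427, exact permutation p = 0.113), so a difference was not shown. With the microglia marker level as a covariate it was 0.16.

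H2-D1, the second classical heavy chain, lies at chr17:35481691-35486475 (plus strand). Wildtype animals had 110, 148 and 235 normalized counts at the lowest, the median and the highest. Knockout animals 1 to 5 had 178, 263, 154, 168 and 168. The values of the genotypes overlapped over most of their range, with knockout animal 2 apart above the other knockout animals. The log2 fold change was 0.23 (SE 0.182, 95% interval -0.13 to 0.59, DESeq2 adjusted p = 0.659). It was 0.072 without knockout animal 2, 0.38 without wildtype animal 2 and 0.075 with the microglia marker level as a covariate.

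The share of H2-K1 among the reads of both heavy chains varied between animals. It was lowest in wildtype animal 6, at 20.96% of 167 reads (95% Wilson interval 15.5 to 27.7%), and highest in knockout animal 5, at 46.6% of 277 reads (40.8 to 52.5%). Within the wildtype group the highest was animal 3, at 42.6% (35.7 to 49.9%). These intervals cover the counting of reads alone, and the animals were named after their values were seen. Between genotypes the share was 32.7 ± 8.69% (SD, n = 6) in wildtype and 38.6 ± 6.18% (SD, n = 5) in knockout animals, with overlap (exact permutation test, p = 0.229). B2m counts per count of both heavy chains were 2.65 ± 0.423 (SD, n = 6) and 2.76 ± 0.386 (SD, n = 5), a difference smaller than the spread between animals (exact permutation test, p = 0.669). Since the 3′ end of H2-K1 is 84.7% identical to that of H2-Q2 over 295 of 300 bases, and the 3′ end of H2-D1 aligned with 120 other genes over 100 bases or more, reads of these genes may have been split or lost as ambiguous. B2m had no such match. The 3′ end of the class II gene H2-Eb1 aligned with 8 other genes over 100 bases or more, at best with 70.9% identity. Shorter matches were 97.0% identity of H2-T23 with Gm14827 over 67 bases and 87.1% of H2-Ab1 with Gm67420 over 70 bases. Whether reads of H2-T23 or H2-Ab1 were lost in this way was not tested.

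**Figure D2:**
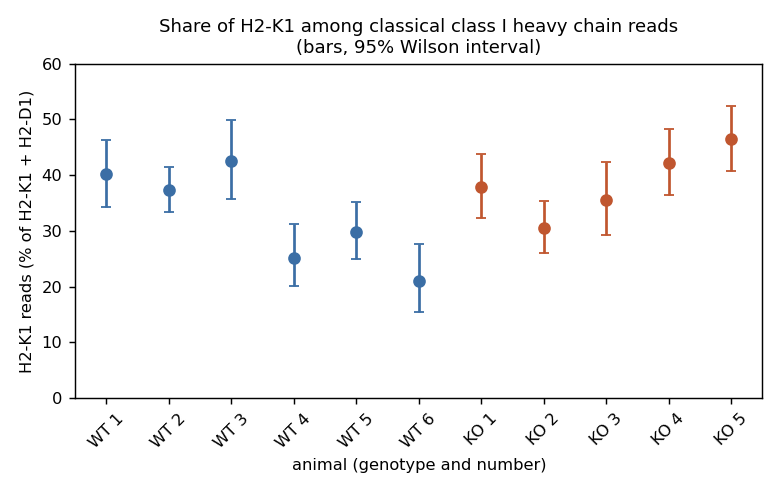
Reads of H2-K1 as a percentage of the reads of H2-K1 and H2-D1 (vertical axis) in each animal (horizontal axis, wildtype blue, knockout orange), with 95% Wilson intervals as bars. Wildtype animals 4, 5 and 6 sat below 30% and wildtype animals 1, 2 and 3 between 37.3 and 42.6%, while knockout animals ranged from 30.5 to 46.6%.

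H2-T23, which encodes the nonclassical class I molecule Qa-1, was near the limit of detection. Its raw counts were 1, 2, 3, 9, 0 and 2 in wildtype animals 1 to 6 and 3, 8, 5, 11 and 2 in knockout animals 1 to 5. The genotypes overlapped, with wildtype animal 4 above 4 of the knockout animals in raw counts. Normalized to depth it was at 7.67, and 2 knockout animals, at 8.08 and 12.4, were above all wildtype animals. The log2 fold change was 1.32 (SE 0.847, exact permutation p = 0.0887), with no adjusted p given by DESeq2 because of the low count. It was 2.10 without wildtype animal 4.

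Tap1, a subunit of the peptide transporter, had raw counts of 17, 17, 1, 1, 22 and 1 in the wildtype animals and 3, 6, 8, 5 and 1 in the knockout animals. Wildtype animals held both the highest and the lowest values, with 3 animals at 1 read and 3 at 17 or more. The log2 fold change was -0.71 (SE 0.812, exact permutation p = 0.459), and it turned to 0.13 in limma and 0.05 with reads outside genes as a covariate. It was -0.28 without wildtype animal 1 and -1.05 without knockout animal 3. Tapbp, which encodes tapasin, was at 98.0, 128 and 144 normalized counts at the lowest, median and highest in wildtype animals and at 99.6, 104, 101, 182 and 126 in knockout animals 1 to 5. The genotypes overlapped almost throughout. Its log2 fold change was -0.04 (SE 0.179, 95% interval -0.39 to 0.32, DESeq2 adjusted p = 0.967), and the sign changed when any of 5 animals was left out. Tapbp shares 3422 bases on the same strand with Zbtb22, measured over whole gene spans. How many reads this concerns was not tested.

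Summed over the 6 class I genes, normalized counts were 988 ± 174 (SD, n = 6) in wildtype and 1262 ± 162 (SD, n = 5) in knockout cortex. Every knockout animal was above the wildtype mean, and wildtype animal 2, at 1301, was above 3 of them. The sum was mostly B2m. Without B2m it was 376 ± 78.5 (SD, n = 6) and 436 ± 61.2 (SD, n = 5), with 4 of 5 knockout animals above the wildtype mean. These sums are a description of chosen genes and were not tested.

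The class II genes were hardly detected. Their summed raw counts were 40, 29, 15, 7, 48 and 49 in wildtype animals 1 to 6 and 8, 17, 7, 37 and 25 in knockout animals 1 to 5. Normalized, the sum ranged from 5.96 in wildtype animal 4 to 51.8 in wildtype animal 6, an 8.69-fold range that lay within 1 genotype, against a 1.72-fold range for class I over all animals. The mean was 28.9 ± 18.1 (SD, n = 6) in wildtype and 20.8 ± 14.3 (SD, n = 5) in knockout cortex. The difference of the means, -8.06, moved between -13.3 and -3.47 when single animals were left out, the former without knockout animal 4 and the latter without wildtype animal 6.

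**Figure D3:**
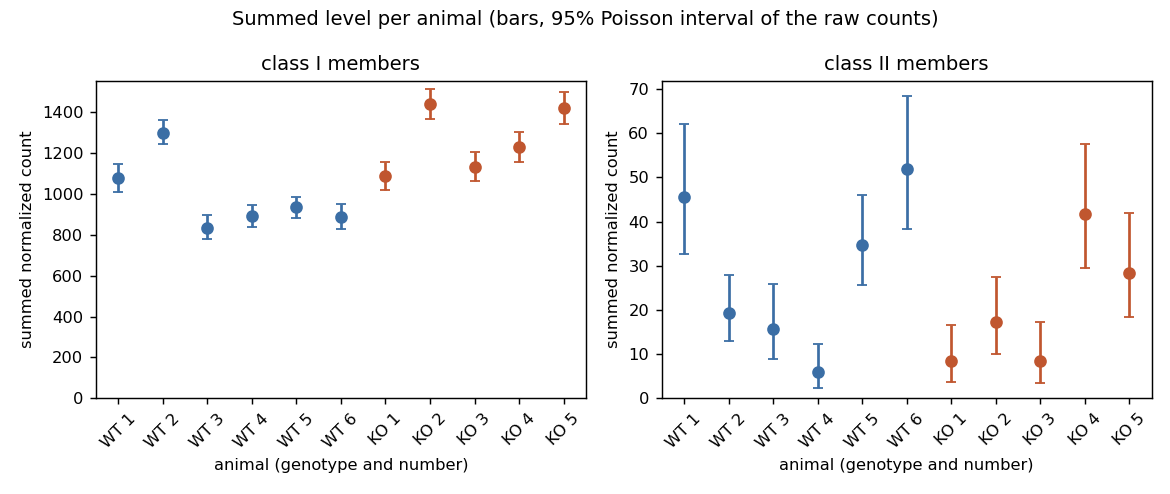
Summed normalized counts (vertical axis) of the 6 class I genes (left) and the 4 class II genes (right) in each animal (horizontal axis, wildtype blue, knockout orange), with 95% Poisson intervals of the raw counts as bars. Class I spanned 835 to 1439 and class II spanned 5.96 to 51.8, with both genotypes spread over most of the class II range.

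Cd74, the invariant chain, is usually among the most abundant class II transcripts in antigen-presenting cells. Here it had raw counts of 1, 13, 3, 2, 3 and 9 in wildtype animals 1 to 6 and 0, 4, 1, 13 and 1 in knockout animals 1 to 5. The high values, 9 to 13 reads, occurred in both genotypes. Its log2 fold change was -0.07 (SE 0.929, 95% interval -1.89 to 1.75), which is too wide to place a change in either direction.

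The α chain gene H2-Aa (chr17:34493404-34506798, minus strand) had raw counts of 21, 3, 3, 1, 23 and 22 in wildtype animals and 5, 3, 3, 10 and 12 in knockout animals. No animal lay between 5 and 10 reads. H2-Ab1, its β chain partner (chr17:34476663-34488393, plus strand), had 7, 10, 5, 4, 11 and 12 reads in wildtype and 2, 5, 2, 8 and 8 in knockout animals. H2-Eb1, the β chain of the E molecule (chr17:34504236-34535648, plus strand), had 11, 3, 4, 0, 11 and 6 reads in wildtype and 1, 5, 1, 6 and 4 in knockout animals. In all of these genes the genotypes overlapped. The log2 fold changes were -0.65 (SE 0.729) for H2-Aa, -0.40 (SE 0.626) for H2-Ab1 and -0.54 (SE 0.840) for H2-Eb1, with exact permutation p of 0.429, 0.377 and 0.457. The sign of each of these changed in at least 1 alternative fit. Leaving out single animals moved them between -0.996 and -0.31 for H2-Aa (the latter without wildtype animal 1, and -0.33 without wildtype animal 6), between -0.65 and -0.18 for H2-Ab1 (the latter without wildtype animal 6) and between -0.87 and -0.13 for H2-Eb1 (the latter without wildtype animal 1).

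H2-Ea, which encodes the α chain that pairs with the product of H2-Eb1 and is known to be silent in C57BL/6 mice, had 0 reads in all 11 animals. That count allows up to 0.545 to 0.937 CPM in a library. Ciita, the master coactivator of class II genes, had 5 reads over all animals together. The 95% interval of the log2 fold change was -2.08 to 0.78 for H2-Aa, -1.63 to 0.83 for H2-Ab1 and -2.19 to 1.104 for H2-Eb1, so changes within these bounds could not be told apart from none.

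Markers of other immune cells were read beside the class II counts. Of the B cell markers Cd79a, Cd79b, Ms4a1 and Iglc3 were at 0 in every animal, and the summed list, in which Ighm held all the reads, ranged from 40.0 to 113 normalized counts in wildtype and 57.7 to 91.5 in knockout animals. Among dendritic cell markers Xcr1 and Ccr7 were at 0 in all animals, and the 8 summed to 71.9 ± 15.2 (SD, n = 6) in wildtype and 75.4 ± 23.5 (SD, n = 5) in knockout cortex, led by Itgax, which microglia also express. The 8 markers of border-associated macrophages, led by Stab1, gave 61.0 ± 14.2 (SD, n = 6) and 70.6 ± 12.5 (SD, n = 5). Of the 6 monocyte and neutrophil markers S100a8 and Ly6g were at 0 and 5 did not exceed 3 reads in any animal, with Ccr2 the highest on average, and of the 7 T cell markers Cd3e, Cd3d, Cd3g, Cd8a and Cd8b1 did not exceed 3 reads. T cell markers, led by Trbc2, ranged from 23.97 to 53.6 in wildtype and 12.6 to 41.8 in knockout animals. The part of these cells in the class II counts was not tested.

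The remaining genes of the pathway were read from the same fit. Cathepsin S, encoded by Ctss and known for trimming the invariant chain in antigen-presenting cells, was the sole gene of the further pathway and interferon lists that passed the threshold. It was at 832, 969 and 1309 normalized counts at the lowest, median and highest of the wildtype animals, and at 1118, 1350 and 1585 at the lowest, median and highest of the knockout animals. Of the 5 knockout animals 3 were above all wildtype animals. The log2 fold change was 0.44 (SE 0.106, DESeq2 adjusted p = 0.00758), and it passed when any single animal was left out. With the microglia marker level as a covariate it was 0.25 (DESeq2 adjusted p = 0.119), and with reads outside genes 0.74 (DESeq2 adjusted p = 0.0962). Per 100 microglia marker counts Ctss was at 41.0 ± 4.36 (SD, n = 6) in wildtype and 49.4 ± 2.04 (SD, n = 5) in knockout cortex (exact permutation test, p = 0.0108).

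Among the class II chains and loading factors, 8 of 11 genes were tested, 6 with estimates above 0, and the median log2 fold change was 0.33. Ctss, Lgmn and Marchf1 were the 3 of them with enough reads for an adjusted p. H2-DMa, part of the peptide exchange factor H2-DM, had a log2 fold change of -0.58 (SE 0.316), opposite in sign to its partner H2-DMb1 at 0.47 (SE 0.499). Neither was given an adjusted p.

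The genes that supply and load class I peptides were all tested, but only 5 of the 11 were given an adjusted p and the rest could not pass. The threshold was passed by 0 of them in either direction. An unadjusted p under 0.05 was found for 0 of the 11, beside 8.58% of all genes. Of the 11, 9 had estimates above 0, and the median log2 fold change was 0.18. Tap2, the partner of Tap1 in the transporter, had a log2 fold change of 0.65 (SE 0.379, unadjusted p = 0.0876), against the estimate below 0 of Tap1. Pdia3, a disulfide isomerase of the loading complex, had 0.20 (SE 0.119, DESeq2 adjusted p = 0.510), and Tapbpl, a tapasin-related editor of peptides, had 0.47 (SE 0.346). The chaperones Calr and Canx, with means of 1242 and 1351 normalized counts, had estimates of 0.0039 (SE 0.0904) and 0.05 (SE 0.0714).

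Of 15 other class I heavy chains and class I-like genes, 7 had enough reads to be tested, 4 of them with estimates above 0. All 7 fell below the filter of DESeq2 on mean counts and 0 were given an adjusted p, so none could pass. The smallest p-values belonged to H2-M3 (log2 fold change 0.89, SE 0.645), which presents formylated peptides, to H2-T24 (1.56, SE 1.15) and to H2-T22 (-0.32, SE 0.333). The 6 Q genes listed had 1 to 17 reads over all 11 animals, with 17 each for H2-Q1, of which 11 were in 1 animal, and H2-Q2.

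Among 14 regulators of MHC genes 12 were tested. Only 5 were given an adjusted p, and none of these passed. Irf8, a transcription factor of myeloid cells, had a log2 fold change of 0.29 (SE 0.165, DESeq2 adjusted p = 0.501), and Nfyc, a subunit of NF-Y, had -0.42 (SE 0.310). Nlrc5, the class I coactivator, had 17 reads over all animals and was not tested. Of the costimulatory genes Cd86 had a log2 fold change of 0.50 (SE 0.577) and Cd80 -1.12 (SE 1.42), and Cd40 was not tested.

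**Figure D4:**
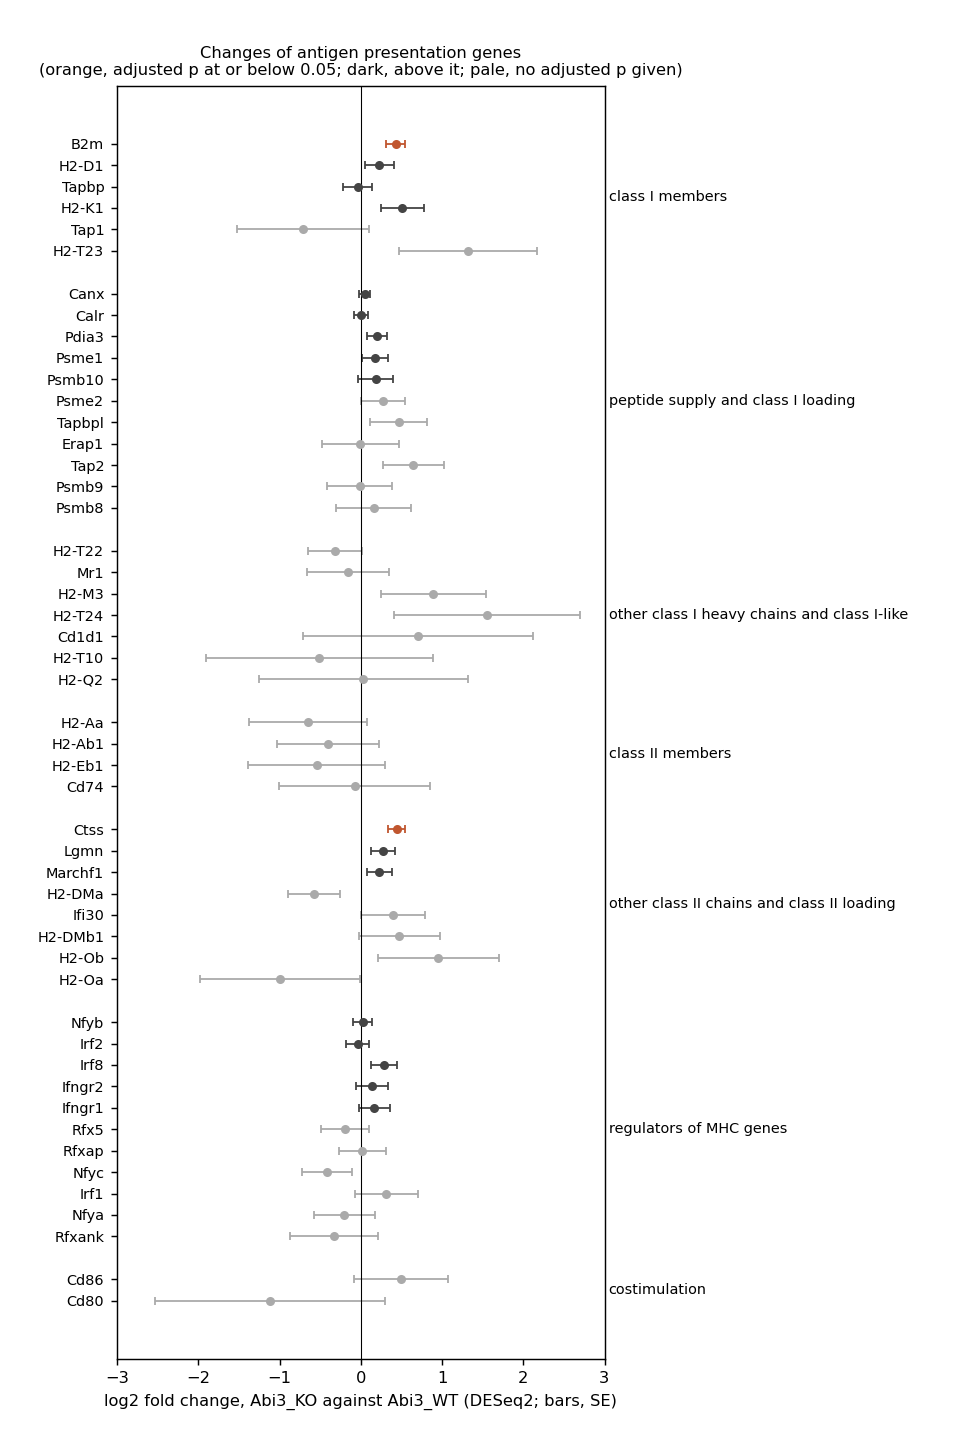
Log2 fold changes of knockout against wildtype (horizontal axis, DESeq2, bars show 1 SE) of the members and of tested genes of the pathway lists (vertical axis, grouped, 1 regulator not drawn). B2m at 0.43 and Ctss at 0.44 were the 2 genes with an adjusted p at or below 0.05 (orange), genes with few reads had SEs up to 1.42, and pale points had no adjusted p.

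Of the 10 members 8 lie in the MHC region of chromosome 17, between positions 34134873 and 36345571. Of 209 annotated genes of that stretch in the data 100 were tested, and 30 of these were given an adjusted p. Of the 100, 1 passed the threshold, beside 0.539% of all genes tested, with 0.34% of all genes higher in knockout. It was Atp6v1g2, which is named after its value was seen and was higher in knockout cortex. The median log2 fold change over the 100 genes was 0.03, and it was 0.02 over the 82 outside the members and lists.

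Across the 11 animals, members of class II varied together more than members of class I did in their point estimates. On log2(normalized count + 1), the median Pearson r was 0.66 over the 6 class II pairs, 0.12 over the 15 class I pairs and -0.0084 over the 24 pairs between classes. Of the 45 pairs none passed Benjamini-Hochberg adjustment, and 8 had an unadjusted permutation p under 0.05. After the genotype means were subtracted these were 0 and 7. The median r was then 0.66 within class II, 0.011 within class I and 0.12 between classes. The difference between the kinds of pair was not tested.

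The highest Pearson r was that of H2-Aa with H2-Eb1, at 0.81 (permutation p = 0.00277, adjusted p = 0.0963) and rho = 0.75 (p = 0.00964, adjusted p = 0.122 by the same permutation test), and r was 0.75 without the 2 animals farthest from the median. H2-Aa and H2-Eb1 overlap by 2563 bases on opposite strands. Counting was stranded, and whether the overlap bears on this correlation was not tested. H2-D1 with B2m gave r = 0.77 (permutation p = 0.00515, adjusted p = 0.0963) and rho = 0.76 (p = 0.00829, adjusted p = 0.122 by the same permutation test), but r = 0.52 without the 2 farthest animals. H2-K1 with B2m gave r = 0.70 over all animals (permutation p = 0.0157, adjusted p = 0.159), with the highest rho of the 45 pairs at 0.82 (permutation p = 0.00290, adjusted p = 0.122). Its r was 0.73 without the 2 farthest animals. After the genotype means were subtracted its r was 0.55 (permutation p = 0.0818) and its rho was 0.35 (permutation p = 0.287). Without the 3 animals with over 1000 Ttr counts 0 pairs passed the adjustment as well.

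**Figure D5:**
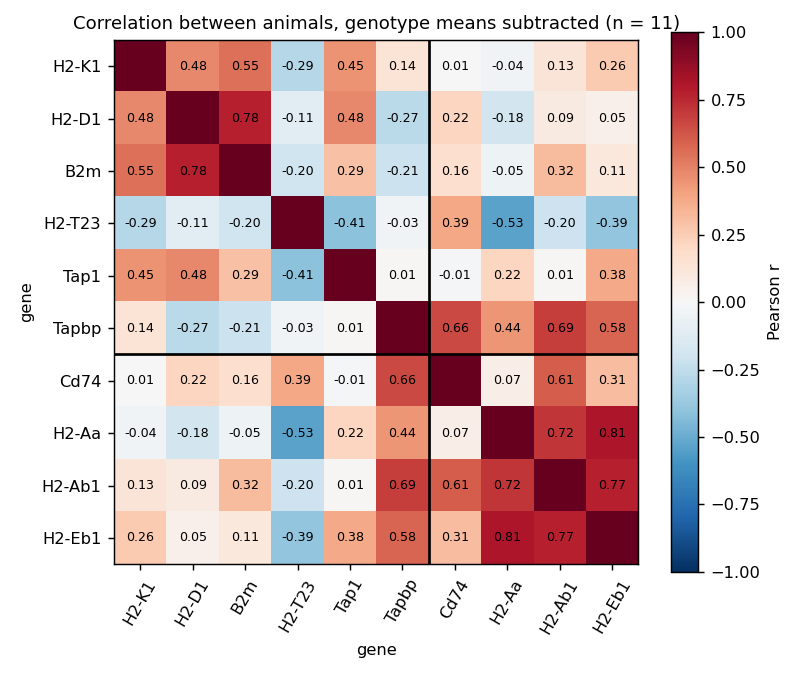
Pearson r of log2(normalized count + 1) between members over 11 animals after the genotype means were subtracted, with class I above and left of the black lines and class II below and right of them. H2-Aa, H2-Ab1 and H2-Eb1 had r of 0.72 to 0.81 with each other, and no pair passed the adjustment for 45 pairs.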

How the data were processed

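QuantSeq 3′ mRNA libraries were made from cortical RNA of 11 female 5xFAD mice, each labelled as a separate replicate. The deposited files hold raw read counts per gene that the authors made by trimming with bbduk, alignment to GRCm39 with STAR 2.7.3a and stranded counting with HTSeq 0.9.1. The counts are not normalized, and no collapse of duplicate molecules is stated. Rows that name no gene (no feature, ambiguous, not unique) held 79.4 to 82.3% of the entries and were left out.

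Genes with at least 10 counts in total were fitted with DESeq2 1.42.0 (R 4.3.3, genotype alone, size factors by default), and those averaging 1.5 normalized counts or more were reported, with 0.05 as the limit of the Benjamini-Hochberg adjusted p. edgeR 4.0.16 (quasi-likelihood), limma 3.58.1 (voom with quality weights), TMM factors, other filters, covariates, a replicate block and fits without single animals were alternatives. The scripts were tested on simulated data. Exact permutation tests used all 462 splits, and correlations 100000 resamples. Promoter and 3′ end comparisons used RefSeq, GENCODE and BLAST 2.17.0. Symbols were found for 98.0% of the gene identifiers.

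The members and lists were chosen with earlier results of these data known. Named genes were all members, of each list the genes past the threshold or else the 3 with the smallest p, leading markers (a few of these are not reported here), and the 5 genes most like each class. Others (Lgmn, Marchf1, H2-DMa, H2-DMb1, Calr, Canx, the Q genes, H2-Ea and the coactivators) were named after their values were seen. Same-numbered animals of the genotypes did not deviate together (correlations of -0.0048 to 0.0656 over 5 pairs), so numbers were not taken as pairs.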

Additional observations from a re-analysis of the deposited data

Results flagged for a closer look

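In 28 groups of 5 or 6 values (each member, Ctss, both class sums and the H2-K1 share, in each genotype), 2 had a highest animal that stood apart from the rest of its group by Dixon's criterion, where about 1.4 would be flagged by chance. H2-D1 was at 262.6 normalized counts in knockout animal 2, beside 178.3 in the next animal, from 260 raw reads. Cd74 was at 14.7 normalized counts in knockout animal 4, beside 4.04 in the next animal, from 13 raw reads.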

How the results depend on the processing

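Of all genes 95 passed the threshold, 57 with the filter on mean counts off, 37 in edgeR, 20 in limma, 33 with the replicate block, 3 with reads outside genes as a covariate, 116 with microglia markers as a covariate (57 of the 95 among them) and 46 to 120 without single animals. The replicate block leaves wildtype animal 6 without a partner. It kept the call on B2m (log2 fold change 0.42, DESeq2 adjusted p = 0.0230) and on Ctss, and turned H2-Aa to 0.19; 28 of its 33 genes were among the 95. Members past the threshold numbered 1, and 0 with the filter off, with reads outside genes or microglia markers as a covariate, in edgeR and in limma, and 0 to 1 without single animals. The exact test of B2m divided by the microglia marker sum, an alternative chosen after seeing the data, gave a 1.21-fold ratio (p = 0.0758). The difference in the class I sum, 273.9, was 229 to 336 without single animals and 60.4 without B2m, also chosen after seeing the data, since B2m holds most of the counts. The class II difference was -13.3 to -3.47 without single animals. With reads outside genes as a covariate signs turned for Tap1 (0.049), Tapbp (0.21), Cd74 (1.47), H2-Aa (0.92), H2-Ab1 (0.27) and H2-Eb1 (0.12), and in limma for Tap1 (0.13) and H2-Aa (0.0043). Without single animals the log2 fold change was -0.22 to 0.032 for Tapbp and -1.45 to 0.29 for Cd74. The cause of these changes was not tested, and depth limits the class II genes, H2-T23 and Tap1.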

Other observations

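The genes whose level over the 11 animals was most like the mean standardized level of the class I members, among 7776 genes averaging 50 normalized counts or more, were Fcgr3 (Pearson r = 0.94), an Fc receptor of myeloid cells, Scarb2 (0.87), a lysosomal membrane protein, Grn (0.87), which encodes progranulin, C4b (0.86), a complement component, and Upf2 (0.86). For class II they were Tmco3 (0.91), Rrbp1 (0.89), Tex2 (0.87), Agk (0.87) and Elmo1 (0.86). These are the highest of many correlations over few animals that share depth and genotype. None of the 10 passed the threshold between genotypes, and Fcgr3 and Agk were given no adjusted p. C4b had a log2 fold change of 0.59 (DESeq2 adjusted p = 0.0748).

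Interferons raise class I genes in many tissues. Of 10 genes of the type I interferon response 5 had estimates above 0 and 5 below. Of these, 2 had an unadjusted p under 0.05, beside 8.58% of all genes. Only 1 of the 10 was given an adjusted p and it did not pass, while the other genes could not pass. The smallest p-values belonged to Ifit2 (log2 fold change 1.32, SE 0.519, DESeq2 adjusted p = 0.390 without the filter on mean counts), Ifit1 (1.36, SE 0.545, DESeq2 adjusted p = 0.407 without that filter) and Oasl2 (0.97, SE 0.573). Mean normalized counts of Ifit1 were 7.09 ± 4.57 (SD, n = 6) in wildtype and 18.2 ± 8.65 (SD, n = 5) in knockout cortex, and those of Ifit2 were 9.85 ± 5.21 and 24.3 ± 19.3. Endothelial markers, led by Flt1, astrocyte markers, led by Slc1a3, and choroid plexus markers, led by Ttr, had no gene past the threshold.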
